A study of Saccharomyces cerevisiae with 20 samples.

Results

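Gcn5 occupancy 1 h after KCl was taken away from adapted yeast was compared with its occupancy in the adapted cells, using the 2 Gcn5 files of these states among the 20 files of the series. The tested cells (D, during recovery) had been pelleted from medium with 1 M KCl and grown for 1 h in YPD without KCl, and their reference (C, after adaptation) was taken from the culture growing in 1 M KCl. Cells in normal growth before stress (A), 1 h after KCl addition (B) and after recovery for some generations without KCl (E) served as context. All cells were BY4742 with a MYC13-KanMX6 tag on Gcn5 (background BQS1350 in the labels), grown in YPD at 30 °C, and Gcn5 was precipitated through the tag, so every value is that of the tagged protein in a single strain. All 6678 ORFs with usable values were members, of 6685 listed; 6 had missing values and 1 had values beyond 20 in size.

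Gcn5 is the catalytic acetyltransferase of the SAGA complex, which is brought to promoters by activators and acetylates lysines in the tail of histone H3, H3K18 among them. In yeast it is best known at inducible and highly transcribed genes. Genes for ribosomal proteins and for ribosome assembly are strongly transcribed in growing cells and are repressed as a group when conditions worsen.

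The values are array signals of precipitated DNA against input on a log scale of arbitrary units, so only differences are given and no fold. Each file was centred on its own median. The upstream value of an ORF is the mean over the 9 bins of its 5′ intergenic region (IGR), the ORF value the mean over 20 bins and the downstream value the mean over the 9 bins of the 3′ IGR. There was 1 file per state. The D minus C changes therefore have no replicate check, and no test was made. In their place, E minus A sets side by side a pair of states long without KCl that share no file with D and C. A change of at least 0.2 was counted as higher or lower.

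Gcn5 differed little at most ORFs after KCl removal, and upstream the lower values were most frequent, among the gene lists examined, at the ribosomal protein genes. Over all ORFs the median change, D minus C, was -0.00496 upstream (SD 0.135 over ORFs), 0.00554 in the ORF (SD 0.0886) and -0.00989 downstream (SD 0.134). Upstream, 280 ORFs were higher in D (4.19%) and 470 were lower (7.04%). In the ORF 120 were higher (1.8%) and 119 lower (1.78%), and downstream 275 were higher (4.12%) and 508 lower (7.61%). Between E and A, 159 ORFs were higher (2.38%) and 265 lower (3.97%) upstream, with an SD of 0.109, so the spread between a pair of files without a recent medium change was not far below that of D minus C. E minus A had 52 ORFs higher (0.779%) and 61 lower (0.913%) in the ORF, and 232 higher (3.47%) and 325 lower (4.87%) downstream. Values just inside and outside the limit upstream were -0.200158 and -0.199601 on the lower side and 0.200184 and 0.199823 on the higher side.

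**Figure D1:**
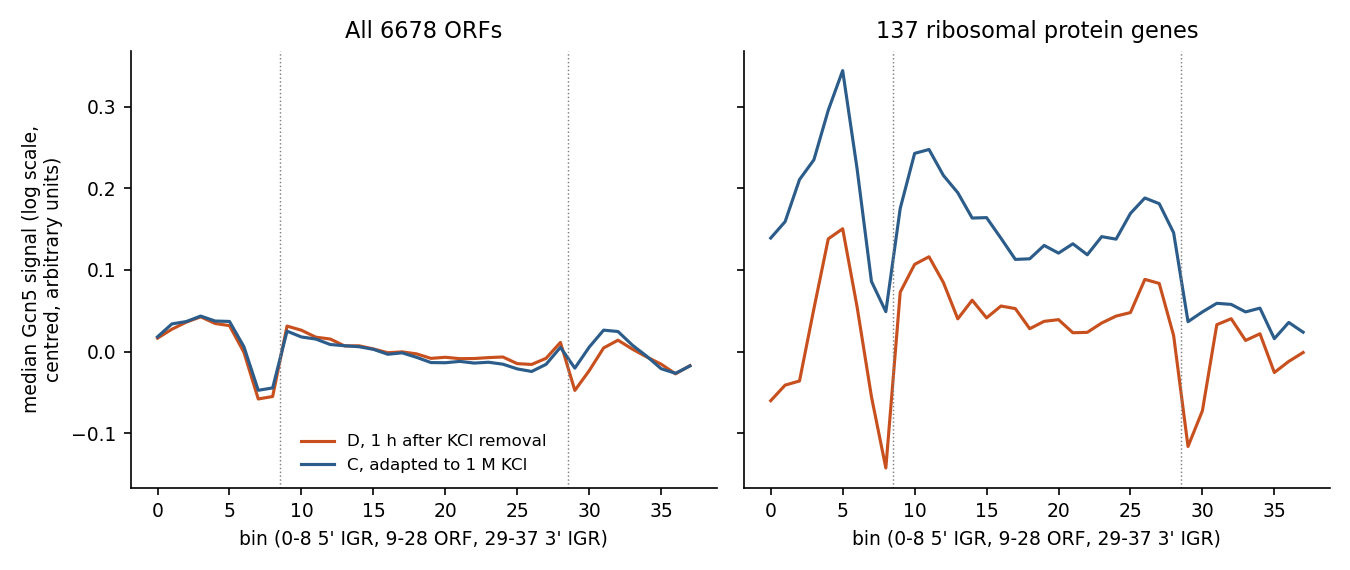
Median Gcn5 signal (log scale, centred, arbitrary units) in each of the 38 bins in D (orange) and C (blue), for all 6678 ORFs on the left and the 137 ribosomal protein genes on the right; dotted lines mark the ORF ends. Over all ORFs the lines nearly coincide, whereas over ribosomal protein genes D lies below C in every bin.

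The 137 genes of cytosolic ribosomal proteins, the structural proteins of the ribosome, had the lowest median change of the 24 gene lists in each region. Upstream, 64 of 137 were lower in D by at least 0.2 (46.7%, against 7.04% of all ORFs) and 1 was higher, with a median change of -0.196 and quartiles of -0.286 and -0.138. In the ORF 34 were lower and 0 higher (median -0.122), and downstream 28 were lower (20.4%) and 5 higher (median -0.105). Downstream, shares as high were found in G1 cyclins and cell cycle regulators (21.7%), RNA polymerase I and III subunits (21.1%) and the HOG pathway (20.8%), lists of 23, 19 and 24 genes. The change was below 0 at 131 of the 137 genes upstream. Along the genes, the median change per bin ran between -0.226 and -0.169 in the 5′ IGR and between -0.177 and -0.0933 in the ORF, and it came to -0.0268 in the bin of the 3′ IGR where it was smallest. Of the ORF values of these genes, 40 rest on a bin that lies exactly midway between its neighbours, as interpolated values would. Without these and overlapping ORFs the ORF median was -0.100 over 96 genes.

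Across the 5 states, the upstream median of these genes in D was close to that in normal growth, and that in C was the highest. The median upstream level was -0.0113 in A, 0.149 in B, 0.187 in C, -0.0176 in D and 0.0466 in E. D was the lowest of the 5 files at 52 of the 137 genes (1084 of all 6678 ORFs). It was at or below A at 68 (2912 of all ORFs, a similar share). C was the highest at 81 of these genes (1244 of all ORFs). Set against the other states, the median change upstream was 0.000840 for D minus A, -0.141 for D minus B and -0.0603 for D minus E. In the ORF the median level was 0.0946 in D, against 0.203 in C, and 0.127 in A. Downstream it was -0.0517 in D, against 0.0612 in C, and the highest median was 0.0980 in B. Upstream, KCl addition moved the same list the other way: B minus A had a median of 0.152, with 49 genes higher (35.8% of the list, against 16.6% of all ORFs) and 1 lower (7.32% of all ORFs). Between E and A the median was 0.0583, with 14 of the 137 higher (2.38% of all ORFs) and 1 lower (3.97% of all ORFs). The list was thus higher more often than all ORFs between these states too, which had no recent medium change.

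**Figure D2:**
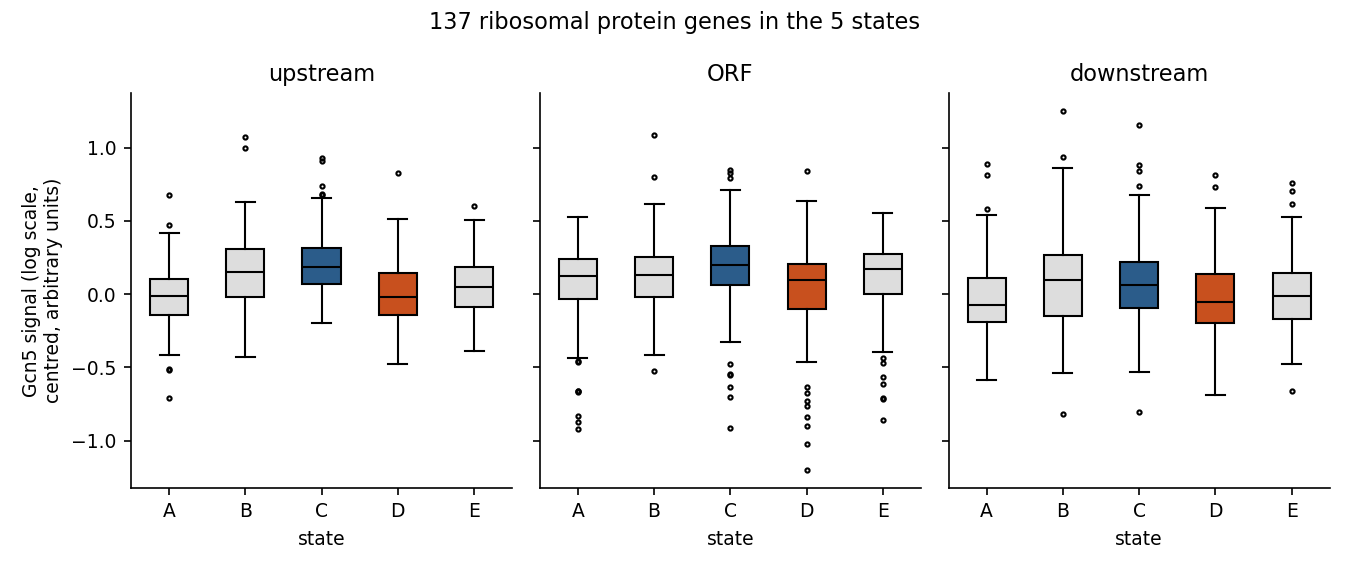
Gcn5 signal (log scale, centred, arbitrary units) at the 137 ribosomal protein genes in states A to E, upstream, in the ORF and downstream; boxes are quartiles with the median, whiskers reach 1.5 times the quartile range, C is blue and D orange. Upstream the median was -0.0176 in D, against 0.187 in C, with -0.0113 in A.

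RPL30, a large subunit protein, had an upstream level of -0.332 in D, against 0.220 in C, a change of -0.552. Its level was -0.248 in A, 0.153 in B and -0.0372 in E, so D was the lowest of the 5 states. RPS22A, of the small subunit, had -0.0967 in D, against 0.454 in C, and 0.0283 in A. RPL1B had 0.397 in D, against 0.931 in C, and 0.470 in A. For RPS22A and RPL1B too, D was the lowest of the 5 states. The exception past the limit was RPL35A, with 0.281 in D, against -0.0652 in C. Small subunit genes had a median upstream change of -0.179 (22 of 56 lower), large subunit genes one of -0.214 (39 of 76 lower) and the 5 stalk genes one of -0.224 (3 lower).

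Most of these proteins are encoded by a pair of near-identical genes. Of 59 such pairs, both copies were lower by at least 0.2 upstream in 10 pairs, 1 copy in 28 and neither in 21, and both changes were below 0 in 53. In the RPL1 pair, RPL1A changed by -0.109 and RPL1B by -0.535. In the RPL15 pair, RPL15A changed by -0.459 and RPL15B by 0.113. In the RPL12 pair, RPL12A changed by -0.370 and RPL12B by -0.290. The median gap between copies was 0.0870, well below that of RPL1 (0.426) and RPL15 (0.572). The counts also depend on the limit, which splits close pairs such as RPS23 (-0.179 and -0.207). Probes in the coding part of near-identical copies can bind DNA of either, so ORF values of a pair are less separable than upstream values.

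H3K18ac was lower at the same genes. Its median upstream change, D minus C, was -0.421 at ribosomal protein genes, below 0 at 135 of 137, against 0.0399 over all ORFs. The median level was 0.205 in A, -0.0685 in B, 0.422 in C, -0.0213 in D and 0.312 in E. Unlike Gcn5, then, this mark was low in both states that followed a medium change by 1 h. H4K16ac had a median change of -0.200 and H3 one of 0.0123. The methods give the same catalogue number for the antibodies against H3K18ac and H3, and this was not resolved from the files.

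Over all ORFs, upstream Gcn5 and H3K18ac changes had a Pearson r of 0.325 (Spearman 0.291, n = 6678 ORFs), and 0.283 without the ribosomal protein genes. In the ORF r was 0.397 and downstream 0.216. These are descriptions across ORFs, which are not independent, of arrays made from the same cultures and set against input that may be shared. In the tenth of ORFs with the lowest H3K18ac change, 21.6% were lower and 2.25% higher in Gcn5. In the tenth with the highest, 4.94% were lower and 16.5% higher. ORFs that gained Gcn5 upstream had a median H3K18ac change of 0.246, above 0 at 229 of 280 (81.8%, against 59.0% of all ORFs). ORFs that lost it had one of -0.114, and of -0.0497 without ribosomal protein genes. The H4K16ac change had an r of 0.167 with Gcn5 upstream, and the H3 change one of -0.0251.

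**Figure D3:**
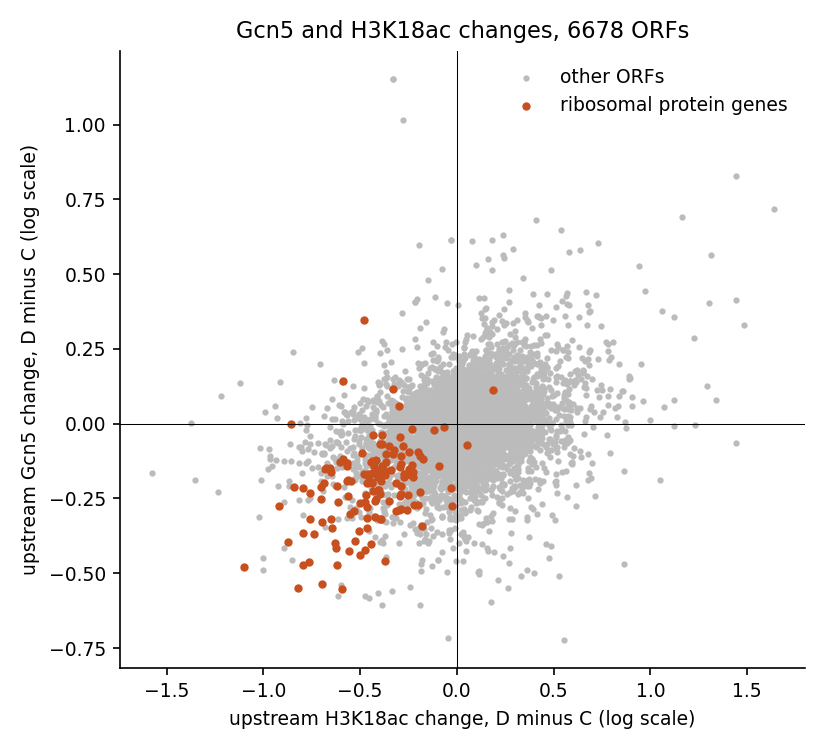
Upstream Gcn5 change against upstream H3K18ac change, both D minus C on the log scale, for 6678 ORFs (grey) with the 137 ribosomal protein genes in orange. The ribosomal protein genes lie mostly below 0 on both axes, and r was 0.325 over all ORFs.

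The Gcn5 change on KCl removal tended to run opposite to that on KCl addition, B minus A, which shares no file with it. Across ORFs r was -0.245 upstream, -0.281 in the ORF and -0.216 downstream. Without ribosomal protein genes it was -0.233 upstream. The mean Gcn5 level in A, B and E had little relation to the change (r of -0.0101 upstream). Calls were most frequent in the tenth of ORFs with the highest mean level, where 13.8% were higher and 15.1% lower.

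Other genes of ribosome production shifted less. Of 132 ribosome biogenesis genes, which assemble the ribosome, 12 were lower upstream (9.09%, against 7.04% of all ORFs) and 3 higher (2.27%, against 4.19%). Their median change was -0.0422, while their H3K18ac had a median change of -0.385. DBP3, a helicase of ribosome assembly, had -0.234 in D, against 0.254 in C, and SNU13, a protein of small nucleolar and spliceosomal particles, had -0.179 in D, against 0.235 in C. HAS1, another helicase of ribosome assembly, went the other way, with 0.644 in D, against 0.114 in C, and so did ERB1, with 0.334 in D, against -0.147 in C. Of 19 RNA polymerase I and III subunits 2 were lower (10.5%, against 7.04% of all ORFs) and 0 higher (median -0.0556), RPC11 and RPA135. Of 35 translation factors 6 were lower (17.1%, above the 7.04% of all ORFs) and 0 higher (median -0.0639), led by TEF2 and YEF3.

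Several lists of metabolism had medians above 0. Of 66 amino acid biosynthesis genes 9 were higher (13.6%, against 4.19% of all ORFs) and 2 lower (median 0.0341). GLN1, glutamine synthetase, had 0.743 in D, against 0.231 in C, and GDH1, an ammonium-assimilating glutamate dehydrogenase, had 0.361 in D, against -0.0698 in C. D was the highest of the 5 states for both. HOM2, of methionine and threonine synthesis, had the lowest change of all ORFs upstream, with -0.487 in D, against 0.235 in C, but -0.574 in E, and TRP2 was lower by 0.232.

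Of 54 genes of the respiratory chain and TCA cycle 6 were higher (11.1%, against 4.19% of all ORFs) and 1 lower (median 0.0585). IDH2, of isocitrate dehydrogenase, had 0.0442 in D, against -0.537 in C. Of 19 genes of phosphate and nutrient signalling 5 were higher (26.3%) and 0 lower (median 0.0554), among them VTC3, with 0.341 in D, against -0.00609 in C. Of 20 trehalose and glycogen genes 3 were higher (15%) and 2 lower (10%, against 7.04% of all ORFs; median 0.0833, the highest of the lists), with PGM2, phosphoglucomutase, at 0.395 in D, against 0.0197 in C. Of 25 glycolysis and fermentation genes 6 were higher (24%) and 2 lower (8%; median 0.0590), so the lower share was near that of all ORFs. The 2 lower ones were PFK1 and PFK2, the subunits of phosphofructokinase. PFK1 had 0.469 in D, against 0.990 in C.

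**Figure D4:**
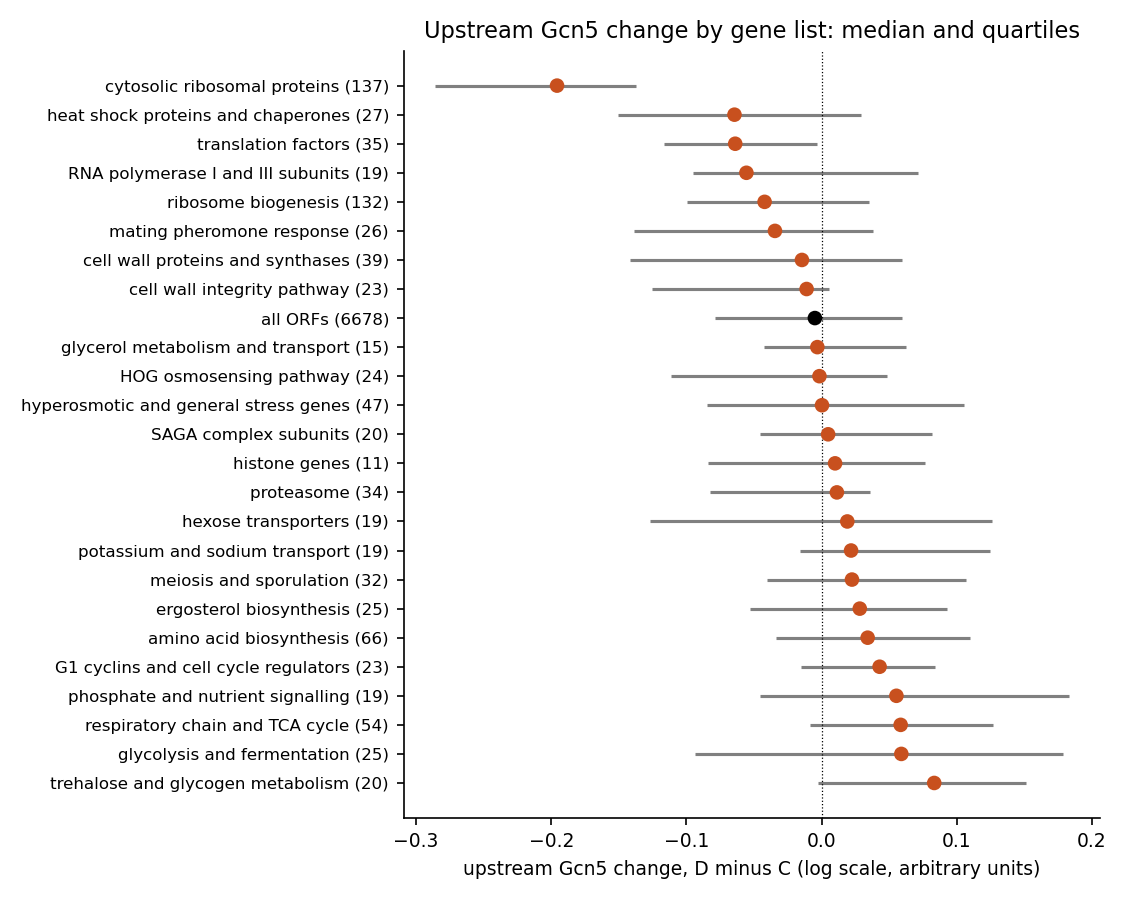
Upstream Gcn5 change, D minus C (log scale, arbitrary units), by gene list: points are medians and lines quartiles over the genes of a list, with the number of genes in parentheses and all ORFs in black. The ribosomal protein list lies apart at -0.196, and the next lowest median was -0.0645.

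Of 47 hyperosmotic and general stress genes 3 were higher (6.38%, against 4.19% of all ORFs) and 5 lower (10.6%, against 7.04%), with a median of 0.000314. GRE2, a reductase induced by salt, had -0.213 in D, against 0.362 in C and 0.152 in B. Of 24 HOG pathway genes 1 was higher (4.17%) and 2 lower (8.33%), near the shares of all ORFs, with YPD1 among the lower. Of 15 glycerol genes 1 was higher (6.67%, a single gene) and 0 lower. The higher one was GPD1, the enzyme of glycerol formation, with 0.166 in D, against -0.0612 in C. Of 19 potassium and sodium transport genes 3 were higher (15.8%) and 1, the proton pump gene PMA1, was lower (5.26%). Of 27 heat shock genes 0 were higher and 4 lower (14.8%), with a median of -0.0645, the next lowest after the ribosomal protein genes, and 19 of 27 below 0. They were led by SSB1 and SSE1.

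The remaining lists had medians between -0.0345 and 0.0429. They were mating pheromone response (0 higher and 4 lower of 26, 15.4% lower), cell wall proteins and synthases (5 and 8 of 39, 12.8% higher and 20.5% lower), the cell wall integrity pathway (1 and 3 of 23, 13.0% lower), SAGA subunits (1 and 0 of 20), histone genes (1 and 0 of 11), the proteasome (0 and 2 of 34), hexose transporters (3 and 2 of 19, 15.8% higher), meiosis and sporulation (2 and 1 of 32), ergosterol biosynthesis (3 and 2 of 25, 12% higher) and G1 cyclins and cell cycle regulators (0 and 1 of 23), against 4.19% higher and 7.04% lower of all ORFs. HXT7, a high-affinity hexose transporter, had 1.08 in D, against 0.555 in C.

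Among named genes not overlapping another, with no midway bin and with D outside the range of the other states, SPL2, an inhibitor of low-affinity phosphate uptake, was highest upstream with 1.27 in D, against 0.439 in C. PHO89, a sodium-phosphate cotransporter, had 1.20 in D, against 0.477 in C. SPL2 and PHO89 were also higher after KCl addition, with 1.06 in B, against 0.637 in A, at SPL2 and 0.967, against 0.555, at PHO89. Their H3K18ac changes were 1.44 and 1.64, so the mark moved with Gcn5. BAP2, an amino acid permease, had 1.24 in D, against 0.555 in C, with 1.12 in A and 1.05 in E. CIT2, the peroxisomal citrate synthase, had 0.843 in D, against 0.195 in C, with 0.544 in A and 0.566 in E. SKS1, a protein kinase, had 0.514 in D, against -0.0901 in C, with 0.153 in A and 0.353 in E. C thus lay below A and E at these genes.

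Lowest upstream by the same choice was HRR25, a casein kinase, with -0.709 in D, against -0.101 in C, and E was low too at -0.482. TEF2, encoding translation elongation factor EF-1 alpha, had 0.588 in D, against 1.18 in C, and lay between 1.06 and 1.08 in A, B and E. RPI1 had -0.0044 in D, against 0.573 in C, and TPO2, a polyamine transporter, had 0.241 in D, against 0.809 in C. RPL30 completed these 5. H3K18ac did not fall with Gcn5 at TEF2, where it changed by 0.175. It was lower at the others of the 5, with changes of -0.188 at HRR25, -0.476 at RPI1, -0.410 at TPO2 and -0.593 at RPL30.

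**Figure D5:**
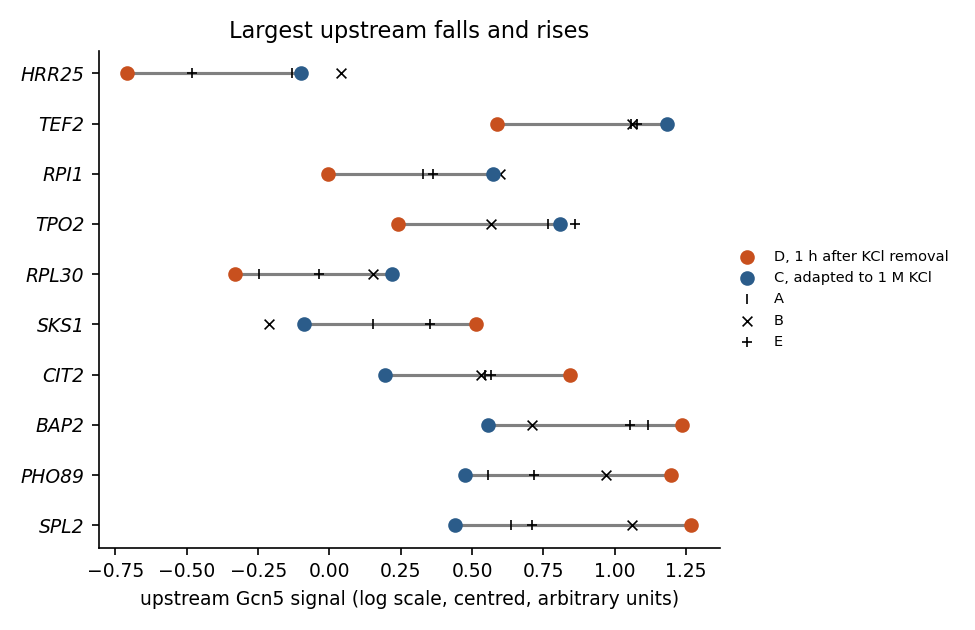
Upstream Gcn5 signal (log scale, centred, arbitrary units) of the 5 genes with the largest losses and the 5 with the largest gains among named, non-overlapping genes with no midway bin and D outside the other states, in D (orange), C (blue) and A, B and E (black marks). D lies outside the other 4 states for each gene, as the choice of genes requires.

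Among genes that met the same conditions, the largest losses in the ORF were at MIN10, RPS17A, RPI1, RNP1 and HAC1, with changes between -0.433 and -0.331. HAC1, the transcription factor of the unfolded protein response, kept a high level, with 1.77 in D, against 2.11 in C and 3.04 in B. The largest gains by this choice were at DPI8 (0.660 in D, against -0.0696 in C), SHR5, PUS2, SPL2 and PUN1. Downstream the largest losses among such genes were at ROX1, ATP3, GSP2, CYT1 and PEX30, between -0.627 and -0.517. The largest gains among them downstream were at AHA1, an Hsp90 co-chaperone, with 0.874 in D, against 0.102 in C, and at LCB3, ARP7, CYC3 and BAG7. Larger changes lay outside these conditions. In the ORF they included RPS17B (-1.09), RPS27B (-0.653) and YGR161C-C (0.941), and downstream GPB1 (-0.710) and SIF2 (1.12).

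Many of these regions are part of an intergenic region that a neighbour shares. Across 1448 divergent pairs the upstream changes had an r of 0.639, and across 2674 tandem pairs the downstream change of the first gene and the upstream change of the second had an r of 0.719. The upstream changes of tandem genes, which lie in different regions, had an r of 0.148. Among the named genes, the ARP7 gain downstream (0.562) faced the GLN1 gain upstream (0.513), and the BAG7 gain (0.541) faced that of IDH2 (0.581). The ATP3 loss (-0.616) faced that of FIG1 (-0.497). Not all pairs matched. The GSP2 loss downstream (-0.573) faced 0.131 downstream of SER1, and the CYT1 loss downstream (-0.568) faced 0.00237 upstream of MSA1. The HRR25 loss upstream (-0.608) faced -0.00344 upstream of PGC1. The 67 other genes divergent from a ribosomal protein gene had a median upstream change of -0.158, with 23 lower and 1 higher. Of all ORFs, 7.04% were lower and 4.19% higher upstream. Array signal alone does not assign such a change to one of the pair.

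Gene length had little relation to the change. The ORF median was -9.75e-06 for the 2395 genes under 1 kb and 0.00668 for the 526 genes of 3 kb or more, and Spearman's rho with length was 0.0456 over 5985 coding genes. Calls in the ORF were more frequent in short genes than in longer ones. Under 1 kb 64 were higher (2.67%) and 71 lower (2.96%), against 1.8% and 1.78% of all ORFs. Genes of 1 to 2 kb had 8 higher (0.353%) and 13 lower (0.574%), and 798 genes of 2 to 3 kb had 0 of either. Genes of 3 kb or more had 2 higher (0.380%) and 4 lower (0.760%). The 675 ORFs without a RefSeq match, whose length was not known, had 46 higher (6.81%) and 31 lower (4.59%). The bins of a short ORF cover fewer array positions, and the part of this in the calls was not tested. Within 20 kb of a chromosome end 7 of 250 genes were higher (2.8%) and 8 lower (3.2%) upstream, against 4.19% and 7.04% of all ORFs. Chromosome medians upstream lay between -0.0249 and 0.0175, highest on chromosome IV.

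The 7 genes that the study also assayed singly by ChIP and PCR had upstream changes in each direction, between -0.182 and 0.201 (median -0.0453). The study's assay compared B with A and addressed the ORFs of long genes beside control genes, so the D minus C values do not bear on it. MYO1, BUD2, CHS1 and OSW2 are the long genes it names, and ACT1 was a gene they were compared with. The medians and counts here pool the long genes with the others. In the ORF 0 of the 7 were higher or lower (median 0.00138, against 1.8% higher and 1.78% lower of all ORFs). Downstream 2 were lower (28.6%, against 7.61% of all ORFs) and 0 higher. CHS1 was higher, with 0.602 in D, against 0.401 in C. ACT1 had 0.319 in D, against 0.501 in C, and ZWF1 had 0.673 in D, against 0.830 in C. BUD2 changed by 0.153, OSW2 by 0.0117, STI1 by -0.0453 and MYO1 by -0.0730. Only CHS1 passed 0.2 upstream among these 7 (14.3%, a single gene, against 4.19% of all ORFs).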

How the data were processed

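ChIP DNA and input were measured by the authors on Affymetrix yeast tiling arrays, with signals from Tiling Analysis Software (version not given in the sources used here) and the 5 samples of an antibody set to one median. What the authors deposited is a score: ChIP signal against input in logarithms of unnamed base, in arbitrary units, as means over 38 bins per ORF. Genome build and annotation are not given in the sources used here, so RefSeq R64 served only for names, lengths and neighbours (6003 of 6678 ORFs matched), and no coordinates or sequences are printed. The cultures of the study are not kept apart in the files, which hold 1 value per state. Array values have no depth, and the number of arrays limits precision.

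With Python 3.11.15, pandas 2.3.3 and numpy 2.4.6, each file was centred on its median over all bins, bins were averaged by region and C was subtracted from D. ORFs with missing values or values beyond 20 were left out. Changes of at least 0.2 were counted. No test was run. The steps were tested on simulated data. The members and gene lists were chosen with earlier results of these data known. RPP1, a subunit of RNase P whose symbol fits the pattern used for ribosomal protein genes, was left out of that list after its value had been seen. Named genes are, per region, the 5 largest changes each way among named, non-overlapping coding genes with no midway bin and D outside the range of A, B, C and E; per list, the 2 largest upstream changes each way, not all of which are printed; and the genes assayed singly. Motifs in promoters were not searched.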

Additional observations from a re-analysis of the deposited data

Results flagged for a closer look

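The ribosomal protein genes moved in opposite directions at the 2 medium changes. The median upstream Gcn5 change was -0.196 after KCl removal (D minus C) and 0.152 after KCl addition (B minus A). With 1 file per state the difference was not tested.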

How the results depend on the processing

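The medians over all ORFs, the difference between long and short genes and the calls under the values as deposited and quantile normalization kept within the limits set (0.05 for a median, 1.5 times for a count). Subtraction of H3 raised the counts to 895 higher and 776 lower upstream, 286 and 272 in the ORF, and 860 and 1053 downstream, and moved the upstream medians of amino acid biosynthesis to 0.116 and of phosphate and nutrient signalling to 0.134. It turned the upstream medians of RNA polymerase I and III subunits to 0.0433 and of translation factors to 0.0244. Over the lists in all regions it moved 18 medians by 0.05 or more, reversed 2 and left 55 within that limit, and of the single genes named as largest gains and losses it moved 28 and left 2, with none reversed. Quantile normalization moved 3 of these genes. At a limit of 0.1 the counts were 971 and 1334 upstream, 472 and 478 in the ORF, and 969 and 1466 downstream. At 0.3 they were 105 and 174, 39 and 52, and 88 and 184. Without overlapping ORFs, ORFs near chromosome ends and ORFs with a midway bin, the ORF counts were 78 and 53. The remaining comparisons were chosen after seeing the data. E minus A gave 159 and 265 upstream, 52 and 61 in the ORF, and 325 lower downstream. For ribosomal protein genes upstream, D minus A gave 0.000840, D minus B -0.141 and D minus E -0.0603, whereas the median was -0.205 after H3 subtraction, -0.190 without members sharing an upstream region and -0.193 with RPP1. The causes were not tested. No paired analysis was possible because each state has 1 file without replicate numbers, and no replicate could be left out. Motifs were not run.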
